A study of Mus musculus with 8 samples.

Results

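Transcripts of 8 protease inhibitors and of one of their target proteases were followed in bone marrow-derived macrophages (BMDM) given sphingosine So(d18:1) or its vehicle. The 9 genes were Spint1 and Spint2, the matriptase gene St14, the serpins Serpinb6a, Serpinb9 and Serping1, the secretory leukocyte peptidase inhibitor gene Slpi, and the cystatins Cst3 and Cstb. They are 9 of the 55357 genes in the deposited table. The genes were chosen by name after Spint1 had been seen to differ between the treatments, so their own fold changes are given here as a description, with their errors. Where a gene of the set passed the threshold of the fit over all genes this is stated, but it is not independent evidence, since the choice rested on the same contrast.

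The cells came from the marrow of wild-type C57BL/6J mice and were grown for 5 to 6 days in M-CSF, the macrophage growth factor, at 10 ng/ml. The 4 So(d18:1) libraries received 2 μM sphingosine dissolved in methanol for 6 h, and the 4 control libraries received methanol, the vehicle, for 6 h. The labels name no inflammatory stimulus, whereas the paper places this experiment under one, and it calls the 4 samples of a group biologically independent without saying whether they came from separate mice or cultures. The p-values measure the spread between these libraries. Each library held 17748397 to 26088609 reads counted on genes. Of the 9 genes, 8 had enough counts to be tested in the fit over all genes (14514 of 55357 were tested), and Serping1 did not.

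Proteases are held in check by inhibitors that fall into a few structural families. Kunitz-domain proteins such as HAI-1 and HAI-2, the products of Spint1 and Spint2, sit in the membrane and block trypsin-like serine proteases, among them matriptase, hepsin and the activator of hepatocyte growth factor (HGF). Serpins trap their protease in a covalent complex, and cystatins occupy the active site of papain-like cathepsins. Spint1, Spint2 and St14 are best known from epithelia, whereas macrophages are rich in lysosomal cathepsins and in cystatin C, the product of Cst3.

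The start regions of both HAI genes are shown because one of the pair differed between the treatments and the other did not pass the test. Each is a 300-base window from RefSeq on build GRCm38.p6, running 5′ to 3′ on the gene's strand from 250 bases before the annotated start to 50 bases from it onwards. Capitals mark the words ACGTG and GCGTG on either strand (read as CACGT or CACGC on the other). ACGTG and GCGTG are core words for factors of the bHLH-PAS family, to which the hypoxia-inducible factors belong.
Spint1, chr2:119237110-119237409, plus strand: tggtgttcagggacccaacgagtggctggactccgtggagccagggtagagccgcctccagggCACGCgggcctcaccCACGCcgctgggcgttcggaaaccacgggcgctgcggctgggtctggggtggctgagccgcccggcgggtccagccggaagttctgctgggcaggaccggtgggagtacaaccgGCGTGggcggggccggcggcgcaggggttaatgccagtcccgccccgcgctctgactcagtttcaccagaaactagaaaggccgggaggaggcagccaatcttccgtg
Spint2, chr7:29281928-29282227, minus strand: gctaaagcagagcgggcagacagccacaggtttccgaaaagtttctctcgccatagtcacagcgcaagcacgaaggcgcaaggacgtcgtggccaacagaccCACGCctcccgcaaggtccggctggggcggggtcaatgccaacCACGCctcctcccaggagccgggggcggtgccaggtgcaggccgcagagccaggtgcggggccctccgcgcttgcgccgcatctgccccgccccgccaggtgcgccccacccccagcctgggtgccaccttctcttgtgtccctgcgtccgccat

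The pair of windows was alike in composition. The Spint1 window was 69.7% G and C and the Spint2 window 69.3%, at percentiles 89.9 and 89.5 of 32851 such mouse windows, whose median was 52.7%. Neither window held ACGTG, which 19.6% of all windows hold. GCGTG, present in 32.4% of all windows, occurred 3 times in the Spint1 window (at -187, -172 and -58 from the start, counted at the first base of the match) and 2 times in that of Spint2 (at -148 and -105). The GC box GGGCGG occurred 3 times in each, and 35.7% of all windows hold it. The AP-1 word TGANTCA (7.81% of all windows) was found in the Spint1 window, at -6, and not in that of Spint2. Neither held TATAAA (13.6%) or GAGGAA (28.3%), one form of the word bound by the myeloid factor PU.1. Of the other inhibitor genes with a window, Slpi held ACGTG on both strands at the same place, forming 1 CACGTG (7.15% of all windows), one of the 2 windows of Serpinb6a held 1 GCGTG, and Cst3 and Serpinb9 held neither word. In all, 6 of the 9 genes had a window. All words were searched on both strands. A match is a description of the letters and not evidence of binding.

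Spint1 transcripts were scarce in vehicle-treated BMDM and several times as frequent after So(d18:1). The gene (ENSMUSG00000027315) lies at chr2:119237362-119249527 on the plus strand of GRCm38. In the control libraries 9, 15, 21 and 13 reads were counted on Spint1, and in the So(d18:1) libraries 68, 100, 117 and 114. All So(d18:1) libraries were above all control libraries, and the smallest count, 9, has a 95% Poisson interval of 4.12 to 17.1, against 52.8 to 86.2 for the smallest So(d18:1) count. As CPM, the count relative to a fixed library total after TMM scaling, the level was 0.433, 0.597, 0.885 and 0.537 in control replicates 1 to 4 and 3.81, 4.52, 6.09 and 4.42 in So(d18:1) replicates 1 to 4. The means were 0.613 ± 0.194 and 4.71 ± 0.972 CPM (SD, n = 4 each). The fitted log2 fold change was 2.92 (SE 0.23, 95% interval 2.45 to 3.40), a fold of 7.58 (5.44 to 10.5). Replicate 3 gave the highest value in both groups. The control values varied by 31.6% (coefficient of variation), where counting error alone would give 27.5%. The So(d18:1) values varied by 20.6% against 10.2%, so their spread exceeded counting error. With any one library left out the log2 fold change stayed between 2.78 and 3.15.

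Spint2, the sister inhibitor, was at a similar low level and showed no such difference. The gene (ENSMUSG00000074227) lies at chr7:29256323-29281912 on the minus strand. Its level was 1.15, 0.677, 1.10 and 1.82 CPM with vehicle and 1.40, 0.860, 1.09 and 1.47 CPM in the So(d18:1) libraries, from 17 to 44 reads per library. The groups overlapped throughout, with means of 1.19 ± 0.471 and 1.21 ± 0.285 CPM. The log2 fold change was 0.03 (SE 0.29), and its 95% interval, -0.58 to 0.64, does not reach the lower bound of Spint1.

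St14, which encodes matriptase, a membrane serine protease that HAI-1 binds, was also higher. The gene (ENSMUSG00000031995) lies at chr9:31089402-31131853 on the minus strand. In the control libraries 22, 46, 27 and 33 reads gave 1.06, 1.83, 1.14 and 1.36 CPM, and in the So(d18:1) libraries 40, 66, 40 and 61 reads gave 2.24, 2.99, 2.08 and 2.37 CPM. The groups did not overlap, although control replicate 2, at 1.83 CPM, came close to So(d18:1) replicate 3, at 2.08 CPM. The log2 fold change was 0.84 (SE 0.22, 95% interval 0.38 to 1.29), a fold of 1.79 (1.30 to 2.45). St14 lost its call at an adjusted p of 0.05 without control replicate 1 (log2 fold change 0.75), without control replicate 3 (0.76) and without So(d18:1) replicate 2 (0.72). Replicate 2 was the highest St14 library of each group.

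**Figure D1:**
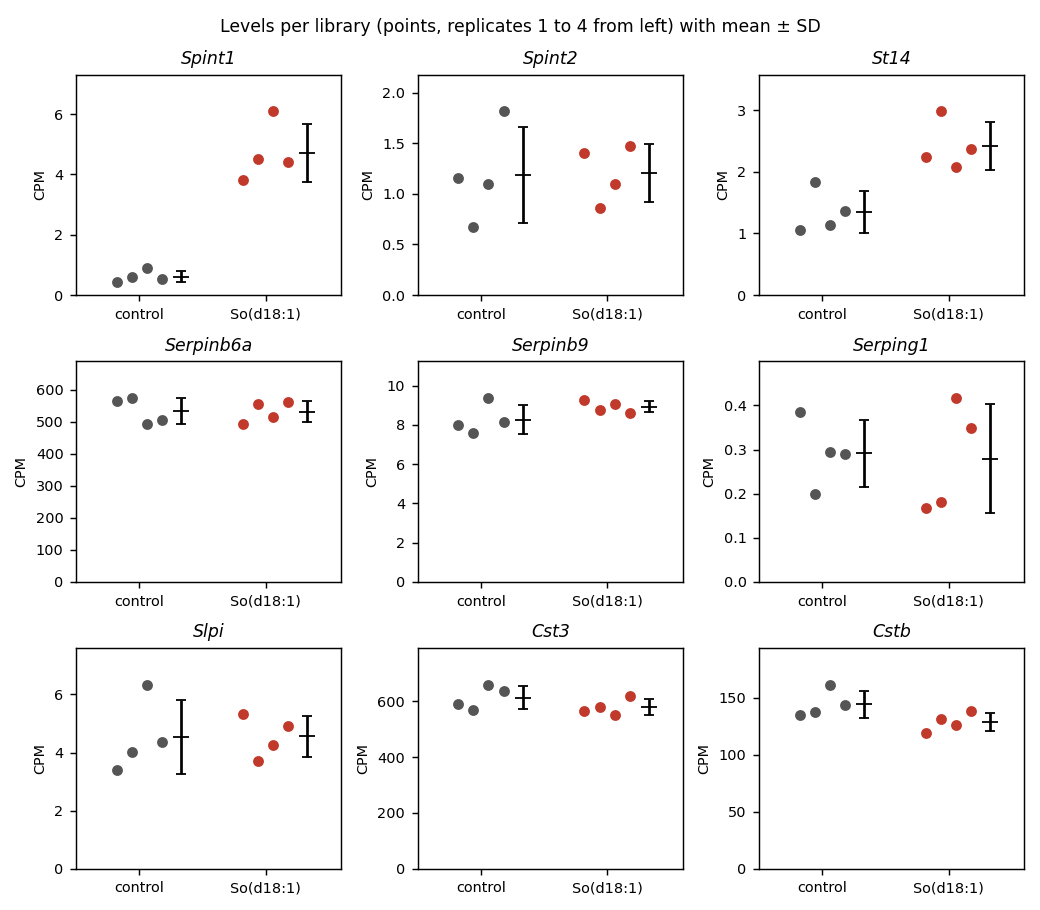
Level of each of the 9 genes in CPM (vertical axis from 0, its own scale per panel) in the 4 control and the 4 So(d18:1) libraries. Points are libraries and the bar beside them is the mean ± SD. The groups separate for Spint1 (0.433 to 0.885 against 3.81 to 6.09) and St14 (1.06 to 1.83 against 2.08 to 2.99) and overlap for the other 7 genes.

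Inhibitor and target were set against each other within each library. For this the counts were divided by gene length and scaled to a common total (TPM), which allows genes to be compared. The ratio of Spint1 to St14 in TPM was 1.13, 0.90, 2.15 and 1.09 with vehicle and 4.69, 4.18, 8.07 and 5.16 in the So(d18:1) libraries. Every So(d18:1) library had more Spint1 per St14 transcript than any control library, and replicate 3 was highest in both groups. The ratio of Spint2 to St14 in TPM was 0.620 to 2.24 with vehicle and 0.483 to 1.05 in the So(d18:1) libraries, and these ranges overlap. Spint1 made up 32.7% to 59.2% of the summed TPM of Spint1 and Spint2 with vehicle and 81.8% to 90.2% in the So(d18:1) libraries. The summed TPM of the pair was 1.28 to 2.05 with vehicle and 5.96 to 8.61 with So(d18:1). The ratios depend on the gene length used: with the longest transcript in place of the merged exons, an alternative chosen after seeing the data, Spint1 over St14 was 0.498 to 1.19 with vehicle and 2.32 to 4.47 with So(d18:1). The groups stayed apart, but in 3 of 4 control libraries St14 was then the higher gene, where with merged exons it was so in 1. The values were built from the same counts that singled out Spint1 and are given without a test.

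**Figure D2:**
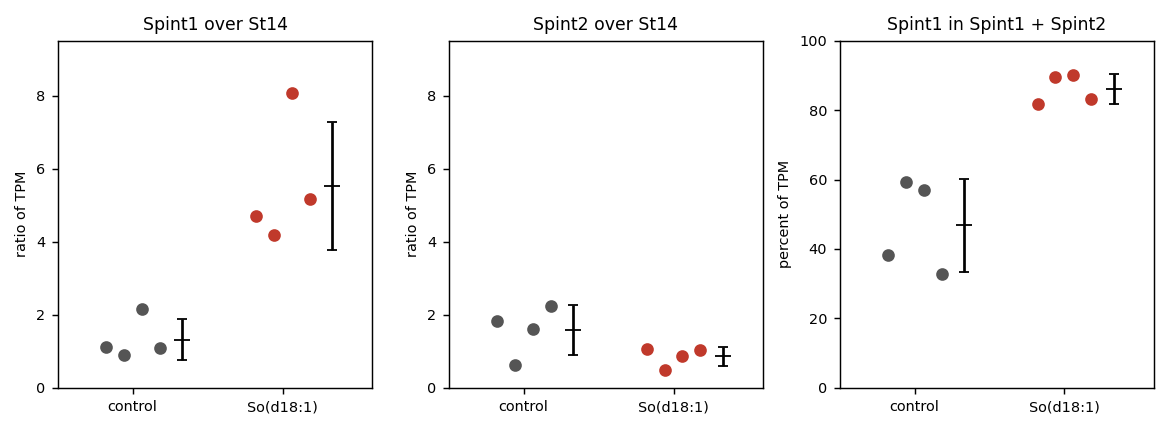
Ratio of Spint1 to St14 and of Spint2 to St14 in TPM, and the percent of the summed TPM of Spint1 and Spint2 that was Spint1, in each library. Points are libraries, and the bar is the mean ± SD. Spint1 over St14 lies at 0.90 to 2.15 with vehicle and 4.18 to 8.07 with So(d18:1), Spint2 over St14 overlaps between them, and the share of Spint1 goes from at most 59.2% to at least 81.8%. With the longest transcript as gene length, Spint1 over St14 lies at 0.498 to 1.19 and 2.32 to 4.47.

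Across all tested genes 8.94% were called at an adjusted p under 0.05 by edgeR's quasi-likelihood test with Benjamini-Hochberg adjustment, 3.87% higher and 5.07% lower. Of the 8 tested genes of this set, 2 (Spint1 and St14) were called, both higher. Their groups were also the only ones of the 8 that did not overlap in CPM, as was so for 15.0% of all tested genes. By the cut-off of the study, a fold change of 1.5 or more at an unadjusted p under 0.05, Spint1 and St14 were again the 2 of 8 that passed, where 3.89% of all genes did. Nothing is read from these counts, since the same contrast led to the choice of the genes.

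The 3 serpins were at very different levels and none was called. Serpinb6a (ENSMUSG00000060147, chr13:33917918-34002794, minus strand), an intracellular inhibitor of serine proteases, was at 563, 573, 492 and 505 CPM with vehicle and 494, 554, 516 and 561 CPM with So(d18:1). Its log2 fold change was -0.0056 (SE 0.054, 95% interval -0.12 to 0.11). Serpinb6a exons overlap those of Ripk1, Nqo2 and 1110046J04Rik on the opposite strand. Of its 50-base words 25.1% also occur in other genes, most often in Nqo2. As the strand setting of the counting is not stated, its level is uncertain. Serpinb9 (ENSMUSG00000045827, chr13:33003250-33017957, plus strand), which inhibits granzyme B, was at 7.99, 7.60, 9.36 and 8.13 CPM with vehicle and 9.25, 8.78, 9.06 and 8.61 CPM with So(d18:1). The Serpinb9 groups overlap through control replicate 3, the highest library of all, and the log2 fold change was 0.11 (SE 0.10, 95% interval -0.11 to 0.32). Serping1 (ENSMUSG00000023224, chr2:84765387-84775444, minus strand), the complement C1 inhibitor, was barely detected, with 8, 5, 7 and 7 reads with vehicle and 3, 4, 8 and 9 reads with So(d18:1). Summed over each group, that was 0.288 CPM (95% Poisson interval 0.19 to 0.419) and 0.283 CPM (0.181 to 0.421). The intervals overlap almost wholly, and at this depth a small difference in Serping1 could not be detected. These intervals cover counting error only.

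Slpi (ENSMUSG00000017002, chr2:164354070-164389095, minus strand) encodes a secreted WAP-domain inhibitor of neutrophil elastase and cathepsin G. It was at 3.42, 4.02, 6.32 and 4.37 CPM with vehicle and 5.33, 3.71, 4.27 and 4.93 CPM with So(d18:1). Both the lowest and the highest Slpi value were in control libraries, and the means were 4.53 ± 1.26 and 4.56 ± 0.715 CPM. The log2 fold change was 0.0019 (SE 0.18, 95% interval -0.36 to 0.37).

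Both cystatins were abundant and neither was called. Cst3 (ENSMUSG00000027447, chr2:148871722-148875692, minus strand), the secreted cystatin C, was at 590, 568, 659 and 636 CPM with vehicle and 567, 578, 552 and 619 CPM with So(d18:1). Its log2 fold change was -0.08 (SE 0.050, 95% interval -0.19 to 0.023). Cstb (ENSMUSG00000005054, chr10:78425669-78427622, plus strand), the cystatin of the cytosol, was at 135, 138, 161 and 143 CPM with vehicle and 119, 131, 126 and 138 CPM with So(d18:1). The Cstb groups overlapped at their edges, and the log2 fold change was -0.16 (SE 0.056, 95% interval -0.28 to -0.047). Cstb was not called, but was called in 3 of the 17 other fits.

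Ordered by mean TPM in the control libraries, Cst3 (1683 TPM) came first, followed by Cstb (832), Serpinb6a (343), Slpi (13.3), Serpinb9 (8.23), Spint2 (0.904), Spint1 (0.769), St14 (0.615) and Serping1 (0.437). The ranges over control libraries separated Cst3 from Cstb, Cstb from Serpinb6a, Serpinb6a from Slpi, Slpi from Serpinb9 and Serpinb9 from Spint2. The ranges of Spint2 (0.523 to 1.38 TPM), Spint1 (0.550 to 1.09 TPM) and St14 (0.487 to 0.845 TPM) overlapped, so those neighbours were not ordered beyond their spread, and that of Serping1 (0.302 to 0.581 TPM) overlapped all 3. In So(d18:1) libraries Spint1 stood at 4.87 to 7.77 TPM, above every library of Spint2 (0.663 to 1.09 TPM) and St14 (0.962 to 1.37 TPM) and below every library of Serpinb9 (8.34 to 9.36 TPM). Among the 14514 tested genes Spint1 went from rank 13703 in control to rank 10200 in So(d18:1) by mean TPM, while St14 stood at 13904 and 13197 and Spint2 at 13517 and 13427. With the longest transcript in place of the merged exons, the order of the control means changed: Serpinb6a (656 TPM) passed Cstb (644 TPM), and St14 (1.02 TPM) passed Spint2 (0.980 TPM) and Spint1 (0.709 TPM).

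**Figure D3:**
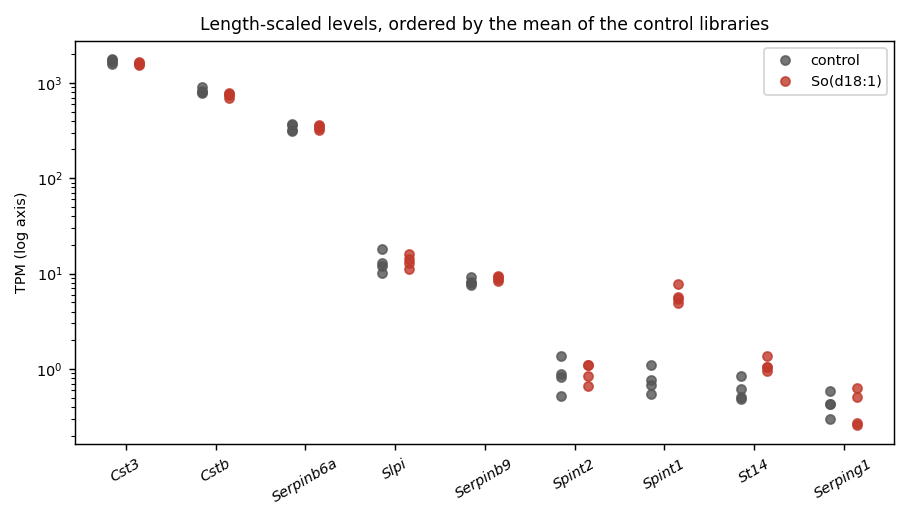
TPM of the 9 genes on a log axis, ordered from left to right by the mean of the control libraries. Points are libraries (4 per group). Cst3, Cstb and Serpinb6a lie above 310 TPM in all libraries, and Spint1 moves from 0.550 to 1.09 TPM in control up to 4.87 to 7.77 TPM in So(d18:1) libraries.

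The other inhibitors of these families were taken whole from lists fixed by family. Of 145 such genes in the table, 70 had no count in any library and 30 were tested. Of these 30, 5 were called (16.7%, against 8.94% of all genes), 2 higher and 3 lower, with a median log2 fold change of -0.04 against 0.0036 over all genes. None of the 6 other tested Kunitz-domain genes passed the test. Among them the amyloid precursor gene App was at 778 ± 20.3 CPM with vehicle and 814 ± 28.1 CPM with So(d18:1) (log2 fold change 0.07, SE 0.042, adjusted p = 0.369), and Aplp2, its relative and the gene next to St14 on chromosome 9, was at 564 ± 9.82 and 529 ± 14.7 CPM (log2 fold change -0.09, SE 0.040, adjusted p = 0.170).

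Of 11 other tested serpins, 3 were called (27.3%, against 8.94% of all genes), 1 higher and 2 lower. Serpinb1a, an inhibitor of neutrophil elastase and related proteases, fell from 17.7 ± 2.07 to 12.1 ± 0.771 CPM (log2 fold change -0.55, SE 0.093, adjusted p = 5.58e-04), and its groups did not overlap. Serpinf1, the pigment epithelium-derived factor, fell from 4.45 ± 1.02 to 2.93 ± 0.466 CPM (log2 fold change -0.60, SE 0.18, adjusted p = 0.0375), with overlapping groups. Its call was lost in 5 of the 8 fits that left out a library, namely control replicate 3 or 4 or So(d18:1) replicate 1, 2 or 4 (log2 fold change -0.65 to -0.49). Serpinb8, an intracellular serpin, rose from 27.4 ± 3.09 to 34.6 ± 3.53 CPM (log2 fold change 0.34, SE 0.083, adjusted p = 0.0166), with overlapping groups, and lost its call without So(d18:1) replicate 4 (log2 fold change 0.30).

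None of the 3 other tested WAP-domain genes and not the single other tested cystatin, Cst7 (log2 fold change 0.14), was called. Wfdc17 was at 144 ± 12.2 CPM with vehicle and 122 ± 12.5 CPM with So(d18:1) (log2 fold change -0.23, SE 0.075, adjusted p = 0.0775), and Wfdc21 at 5.46 ± 0.851 and 4.25 ± 0.995 CPM (log2 fold change -0.35, SE 0.16, adjusted p = 0.205). Wfdc17 passed in 5 of the 17 other fits. Of 9 inhibitors of other families 2 were called (22.2%, against 8.94% of all genes). Timp2, an inhibitor of matrix metalloproteases, fell from 228 ± 10.7 to 180 ± 3.59 CPM (log2 fold change -0.34, SE 0.043, adjusted p = 1.92e-05), and Cast, the calpain inhibitor calpastatin, rose from 155 ± 11.1 to 178 ± 3.12 CPM (log2 fold change 0.20, SE 0.048, adjusted p = 0.0110). The groups of both genes did not overlap. Of the words in Cast transcripts 10.5% also occur in other genes, most often in Erap1, which overlaps Cast on the opposite strand.

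The listed proteases and substrates of these inhibitors were called more often lower than higher. Of 77 listed genes 34 were tested and 11 called (32.4%, against 8.94% of all genes), 2 higher and 9 lower, with a median log2 fold change of -0.12. Of all tested genes 3.87% were called higher and 5.07% lower. The lists were chosen with earlier results of these data known. Among the 9 lower genes were Ctsg, Prtn3 and Elane of the neutrophil granule and Ctsw of cytotoxic lymphocytes. On the axis of HAI-1 and HGF, 5 genes besides St14 were tested and 3 were called (60.0%), all lower. Hpn, which encodes hepsin, fell from 17.8 ± 1.21 to 12.9 ± 1.35 CPM (log2 fold change -0.48, SE 0.090, adjusted p = 0.00151). Plau, the urokinase gene, fell from 32.7 ± 6.43 to 20.3 ± 1.72 CPM (log2 fold change -0.69, SE 0.13, adjusted p = 0.0108) and lost its call without So(d18:1) replicate 4, where the log2 fold change was again -0.69. Hgf, the growth factor gene, fell from 72.6 ± 4.48 to 64.7 ± 1.43 CPM (log2 fold change -0.17, SE 0.051, adjusted p = 0.0453), with its call lost in 6 of the 8 fits that left out a library, all but those without control replicate 3 or 4 (log2 fold change -0.18 to -0.12). The groups of all 3 genes were separate. St14 and Hpn, which encode membrane serine proteases of the same family, had log2 fold changes of opposite sign, with intervals of 0.38 to 1.29 and -0.66 to -0.29.

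The papain-like cathepsins and other cysteine proteases, the targets of cystatins and calpastatin, were all 13 tested and 5 were called (38.5%, against 8.94% of all genes). Ctsl, the cathepsin L gene, rose from 1308 ± 59.3 to 1806 ± 94.99 CPM (log2 fold change 0.47, SE 0.047, adjusted p = 1.25e-06), and Capn1, a calpain, from 73.9 ± 0.238 to 83.7 ± 4.29 CPM (log2 fold change 0.18, SE 0.047, adjusted p = 0.0186). Capn1 lost its call without So(d18:1) replicate 2 (log2 fold change 0.15). Ctsc, whose product activates the granule serine proteases, fell from 795 ± 32.2 to 627 ± 9.43 CPM (log2 fold change -0.34, SE 0.042, adjusted p = 1.25e-05), and Ctsh from 414 ± 19.7 to 329 ± 17.5 CPM (log2 fold change -0.33, SE 0.047, adjusted p = 7.66e-05). Ctsw, the cathepsin of cytotoxic lymphocytes, fell from 0.949 ± 0.341 to 0.364 ± 0.141 CPM (log2 fold change -1.36, SE 0.38, adjusted p = 0.0282) on 5 to 31 reads per library. Without control replicate 1 or 4 or So(d18:1) replicate 2 or 3 the Ctsw call was lost (log2 fold change -1.25 to -1.17). Of the words in Ctsl transcripts 26.3% also occur in other genes, most often in Gm47123 on the opposite strand. Ctsl exons also overlap Gm49230 on the same strand, so the level of Ctsl is uncertain.

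The summed TPM of Cst3, Cstb and Cst7 was 2387 to 2690 with vehicle and 2281 to 2434 with So(d18:1). The summed TPM of the cathepsins and legumain was 16540 to 17340 and 16120 to 16940. The cystatin sum was thus 13.9% to 15.5% of the cathepsin sum with vehicle and 13.98% to 14.4% in So(d18:1) libraries, with overlapping ranges. Within that sum Ctsl alone went from 652 to 727 TPM in control to 939 to 1010 TPM in So(d18:1) libraries.

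Of 16 tested serine proteases outside the HAI-1 list 3 were called (18.8%, against 8.94% of all genes), all lower and all of the neutrophil granule. Prss57, a further granule protease, was not called (log2 fold change -0.55, SE 0.22, adjusted p = 0.139). Its level is uncertain, since 38.4% of its words also occur in other genes, most often in Fstl3 on the opposite strand. Ctsg fell from 8.23 ± 1.08 to 5.14 ± 0.895 CPM (log2 fold change -0.66, SE 0.14, adjusted p = 0.00323), Prtn3 from 16.9 ± 2.64 to 11.97 ± 0.755 CPM (log2 fold change -0.50, SE 0.10, adjusted p = 0.00378) and Elane from 25.8 ± 4.90 to 19.4 ± 0.624 CPM (log2 fold change -0.41, SE 0.11, adjusted p = 0.0286). Elane lost its call in 5 of the 8 fits that left out a library, those without control replicate 4 or any one So(d18:1) replicate (log2 fold change -0.43 to -0.38). Over all 8 fits it was -0.50 to -0.29, smallest without control replicate 3. The Prtn3 change was also smallest without that library (-0.42), and that of Ctsg without So(d18:1) replicate 1 (-0.61). The summed TPM of the 3 genes was 124 to 178 with vehicle and 107 to 113 with So(d18:1), while the TPM of Slpi, which inhibits elastase and cathepsin G, was 10.2 to 18.3 and 11.04 to 16.0. Neutrophil markers moved the same way. All 10 tested had a log2 fold change below 0 (median -0.45) and 5 were called lower, S100a8, S100a9, Mpo, Cxcr2 and Elane, which is on both lists. The 10 markers summed to 1700 to 2345 CPM with vehicle and 1339 to 1519 CPM with So(d18:1). None was at 0 in all libraries, and their part in the lower Serpinb1a, Ctsg, Prtn3 and Elane levels was not tested. In these bulk samples fewer cells of a type and less RNA per cell cannot be told apart.

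**Figure D4:**
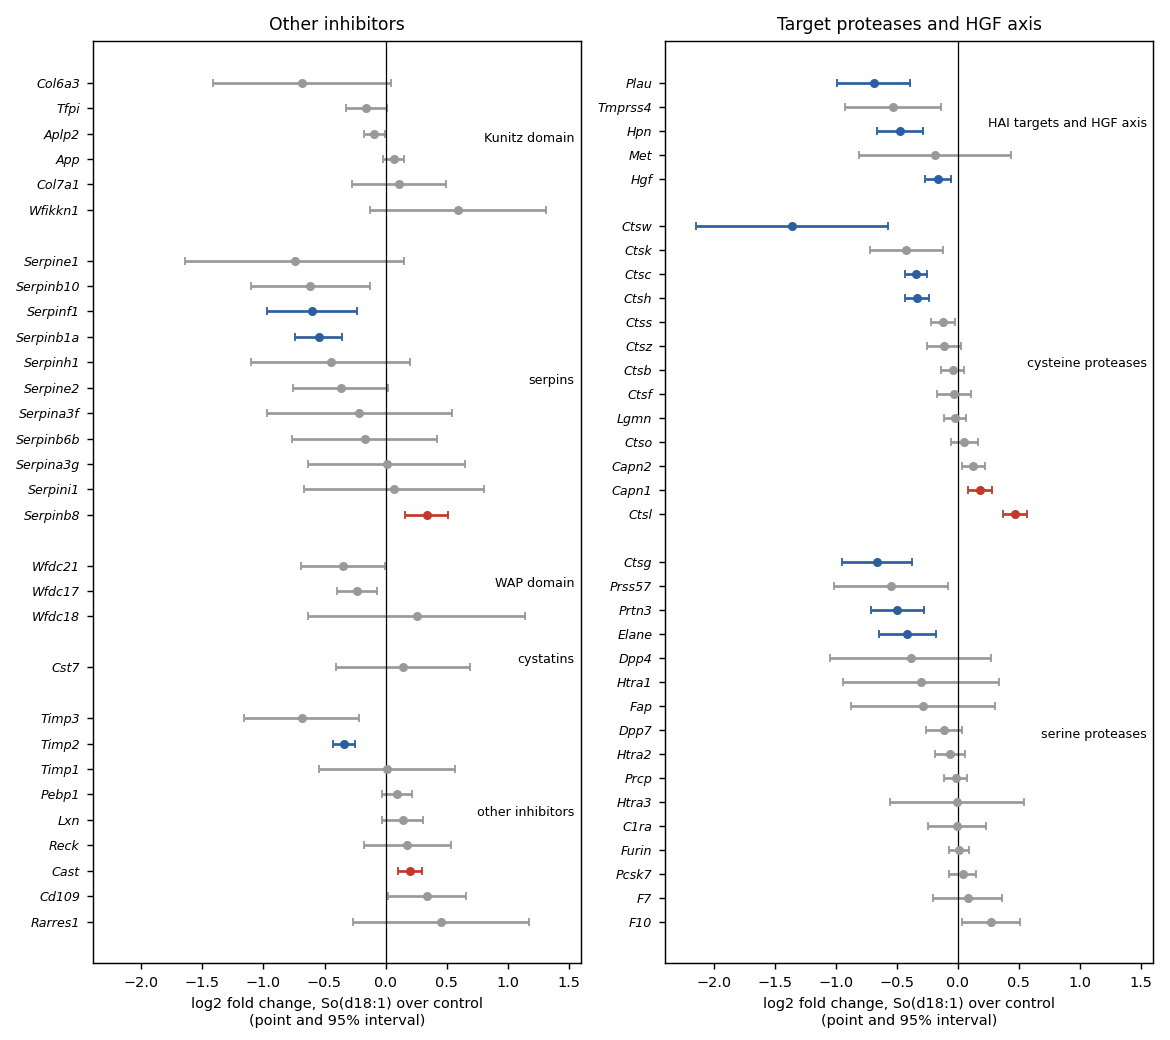
Log2 fold change of So(d18:1) over control (horizontal axis, point with 95% interval) for the 30 other tested inhibitors on the left and the 34 tested target genes on the right, by family. Genes called higher are red, genes called lower are blue and the rest are grey. On the left 2 were called higher and 3 lower, and on the right 2 higher and 9 lower.

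Markers of the cells themselves were checked because Spint1 and St14 are known from epithelia. Of 8 epithelial markers none had enough counts to be tested, Krt8, Krt19, Esrp1 and Grhl2 were at 0 in every library, and no marker exceeded 13 reads in any library. Their summed level was 0.337 to 0.660 CPM with vehicle and 0.155 to 0.573 CPM with So(d18:1), and their part in the Spint1 and St14 levels was not tested. The 9 macrophage markers summed to 30860 to 33320 CPM with vehicle and 26720 to 31700 CPM with So(d18:1). Of these 9, 3 were called (33.3%, against 8.94% of all genes). Mertk (log2 fold change -0.38, adjusted p = 6.195e-06) and Cd68 (-0.22, adjusted p = 0.00349) were called lower and Itgam (0.18, adjusted p = 0.0119) higher. Lymphoid markers summed to 4.14 to 6.91 CPM with vehicle and 2.62 to 3.48 CPM with So(d18:1). Of 4 tested, 1 was called (25.0%, against 8.94% of all genes), namely Nkg7, which was lower (log2 fold change -0.83, adjusted p = 0.0426). The part of lymphoid markers in the lower Ctsw level was not tested. None of the tested dendritic, fibroblast, endothelial or mast cell markers was called. The mast and basophil markers summed to 5.00 to 6.40 CPM with vehicle and 3.303 to 5.52 CPM with So(d18:1), with Tpsb2 at 0 throughout. Most of this sum was Kit, the only one tested (means 5.26 and 3.98 CPM). Reads summed over the vehicle and the So(d18:1) libraries were 18 and 11 for Cpa3 and 17 and 7 for Ms4a2. Mcpt8 (2 and 14 reads) and Fcer1a (0 and 5 reads) went the other way.

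Genes around Spint1 on chromosome 2 were examined to see whether the difference was shared by its neighbourhood. Within 100 kb of the Spint1 start lie the starts of 12 other genes, of which 6 were tested and 2 called, where 8.94% of all tested genes were called. Zfyve19, whose start is at -28.7 kb (upstream), rose from 26.6 ± 0.747 to 32.5 ± 1.196 CPM (log2 fold change 0.29, SE 0.060, adjusted p = 0.00328), and Rmdn3, at -80.3 kb, from 14.6 ± 1.28 to 18.0 ± 0.653 CPM (log2 fold change 0.30, SE 0.082, adjusted p = 0.0230). Both changes were far smaller than that of Spint1, with intervals of 0.17 to 0.41 and 0.13 to 0.48 against 2.45 to 3.40. Rmdn3 lost its call without control replicate 1 or 4 or So(d18:1) replicate 4 (log2 fold change 0.27 to 0.28), and a Zfyve19 exon overlaps Dnajc17 on the opposite strand. The nearest tested gene downstream, Rhov, was at 0.843 ± 0.414 CPM with vehicle and 1.12 ± 0.160 CPM with So(d18:1) (log2 fold change 0.39, SE 0.33, adjusted p = 0.518). Gm14137 (log2 fold change -0.24), Dnajc17 (-0.07) and Vps18 (0.02) were not called either.

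**Figure D5:**
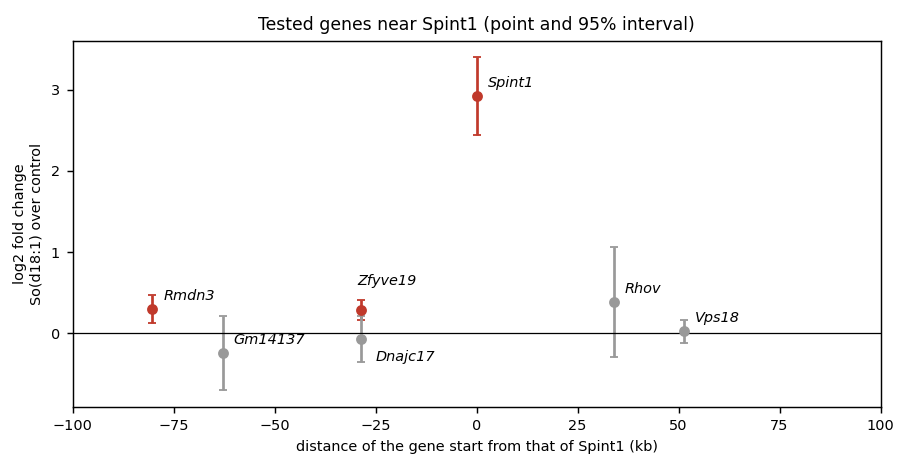
Log2 fold change of So(d18:1) over control (vertical axis, point with 95% interval) against the distance of each tested gene's start from that of Spint1 in kb. Red points were called higher and grey points were not called. Spint1 stands at 2.92, and the 6 neighbours lie between -0.24 and 0.39.

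The genes whose log2 CPM ran most like that of Spint1 over the 8 libraries were Acpp (Pearson's r = 0.991), Kansl2 (0.987), Ly6a (0.985), Npepps (0.983) and Cytip (0.983). The 8 libraries form 2 treatment groups, so these values mainly reflect the difference between groups. After each group's mean was removed they were 0.761, 0.855, 0.566, 0.528 and 0.513. The 5 genes were picked by r over these same libraries, which favours high values within groups too, so nothing is read from them. The Spint1 values in control libraries also varied little beyond counting error (31.6% against 27.5%). All 5 were called higher. Acpp, an acid phosphatase gene, rose from 12.5 ± 1.25 to 48.6 ± 4.40 CPM, and Ly6a, which encodes the surface antigen Sca-1, from 20.5 ± 2.13 to 61.1 ± 6.12 CPM. Cytip rose from 43.3 ± 2.51 to 82.0 ± 5.46 CPM, Npepps, the puromycin-sensitive aminopeptidase, from 168 ± 7.95 to 239 ± 5.07 CPM, and Kansl2 from 43.9 ± 3.16 to 59.2 ± 1.24 CPM. Among the tested genes of the set St14 was the most like Spint1, with r = 0.835 (rank 457 of all genes), but within groups its r was -0.09. Serpinb9 followed at 0.648, Slpi at 0.160 and Spint2 at 0.04, while Serpinb6a (-0.10), Cst3 (-0.43) and Cstb (-0.57) ran below 0. These correlations are descriptions over libraries that share a run of counting and scaling.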

How the data were processed

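Poly(A) RNA of 8 mouse BMDM libraries, 4 per group, was sequenced. The submitters' processing notes name Trim Galore 0.6.7 for trimming, HISAT2 2.2.1 for alignment, the mm10 build, and featureCounts 2.0.1. The table deposited by the authors gives raw counts for each Ensembl gene in each library, with a gene length. The annotation release, strand setting and treatment of multi-mapping reads are not given in the sources used here.

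Symbols came from GENCODE release M21 (GRCm38), which named 52081 of 55357 identifiers, and those without one held 0.169% to 0.325% of counts. The test was run in edgeR 4.0.16 under R 4.3.3 (filterByExpr, TMM factors 0.989 to 1.01, robust quasi-likelihood F test, Benjamini-Hochberg adjustment over 14514 genes). A gene was called at an adjusted p under 0.05. CPM used the total of the tested genes, and TPM used the deposited gene length. Replicates of a group differed by more than counting noise (chi-square per gene 2.75 to 12.1). Total counts of 17748397 to 26088609 set the counting precision, which is low for genes with few reads. With 4 libraries per group, an exact permutation test cannot go below p = 0.0286.

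The 9 genes and the lists were chosen with earlier results of these data known. Genes were named by rule: the 9 genes, the called genes of each family or target list (at most 8, and where fewer than 3 were called also the 2 with the highest mean CPM), the 5 genes most correlated with Spint1 and the tested genes starting within 100 kb of it. Cell type markers, Cst7 and Prss57 were named outside this rule. Alternatives were other scalings, filters and tests (limma 3.58.1 voom, DESeq2 1.42.0), the replicate number as a block, the study's threshold, another gene length and each library left out in turn. On simulated data for this comparison with 14514 genes, 76 of 100 genes with a log2 change of 0.75 and 88 of 96 with 1.5 were called, and 12 of 176 calls were unchanged genes. Shared sequence was taken as the portion of a transcript's 50-base words that another gene also holds. Promoter windows came from RefSeq. No deposited column of the authors' own comparisons was used.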

Additional observations from a re-analysis of the deposited data

Results flagged for a closer look

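In 78 groups of 4 libraries, one per named gene and treatment, 2 held a library that stood apart from the other 3 by Dixon's test, where chance at 1 in 20 would give 3.9. Ctsl in control replicate 4 was at a log2 CPM of 10.25 against 10.37 to 10.39 in the other control libraries (gap over range 0.87). Ctsg in control replicate 2 was at 2.74 against 3.13 to 3.17 (gap over range 0.901). The lone Ctsl value lies away from the So(d18:1) libraries, which were higher, and the lone Ctsg value towards them, which were lower. None of the 8 tested genes of the set, Spint1 and St14 included, held such a library in either group.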

How the results depend on the processing

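Spint1 had a log2 fold change of 2.78 to 3.15 in the 16 other fits that held it. It could not be fitted under a minimum of 10 counts in every library. Left-out libraries moved the count of called inhibitors from 5 to between 4 and 6, that of called targets from 11 to between 7 and 11, and that of all genes from 1298 to between 815 and 1370. The counts of 7 (1 higher, 6 lower) and 815 both came without So(d18:1) replicate 2. By an unadjusted p under 0.05 with a fold change of at least 1.5, 564 genes (204 higher, 360 lower) passed, with 3 inhibitors and 3 targets, all lower. Other scalings, filters and tests kept these counts within 1.5 times, and no called fold change changed sign. Upper quartile scaling gave 455 higher and 847 lower genes. Outside the left-out libraries, Serpinf1 lost its call with limma-voom (adjusted p = 0.0574), Hgf lost it with library size alone, without a filter and with limma-voom (0.0503 to 0.0593), Cstb gained one without a filter (0.0220), and Wfdc17 gained one without a filter, with DESeq2 and with the likelihood ratio test (1.83e-04 to 0.0316). The median control level of the 9 genes was 8.23 TPM, or 6.41 TPM with the longest transcript.

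Deviations of same-numbered libraries from their group means correlated weakly (-0.0035, 0.10, 0.033 and 0.0091). With 4 libraries per group, these values cannot settle whether the numbers pair the libraries. Of the 8 libraries, 3 correlated best with the library of their own number in the other group. The replicate block gave 1784 genes (808 higher, 976 lower), 7 inhibitors and 12 targets, and called Cstb (adjusted p = 0.0339).

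At 17748397 to 26088609 counts per library, genes with few reads, such as Spint2, St14 and Ctsw, had standard errors of 0.22 to 0.38 on the log2 scale.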
